A study of Mus musculus with 10 samples.

Results

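Heat shock, DNAJ and chaperonin genes are the protein-folding genes whose symbols begin with Hspa, Hspb, Hspd, Hspe, Hsph, Hsp90, Dnaja, Dnajb, Dnajc or Cct, together with Tcp1 and the transcription factor gene Hsf1. They were chosen by symbol and not by how they differed between the groups, although earlier results of these data were known. The deposited table held 75 such symbols, and 73 of them had a value of 10 or more in at least 5 of the 10 libraries, out of 13567 genes that passed the same filter. Dnajb7 and Dnajc22 fell below it. Of the 73, 71 reached 10 in all 10 libraries, and Cct6b and Dnajb3 did so in 4 libraries of each group, so no gene entered through 1 group alone. The RNA came from leukemic spleens of C57BL/6 mice that had been sublethally irradiated and then injected by vein with a T cell acute lymphoblastic leukemia, T-ALL, that carries conditional Sirt1 alleles. Corn oil alone was injected into the peritoneum of the 5 control mice, whereas each of the 5 mice of the Sirt1 deleted group received tamoxifen there (3 mg, in the same oil). All 10 recipients carried the conditional leukemia, none received tamoxifen without the deletion, and tamoxifen and the loss of Sirt1 therefore cannot be told apart. The Cre driver is not given in the sources used here, nor is it said whether all mice received the same leukemia, and p-values rest on the spread among these 10 spleens.

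Molecular chaperones bind proteins that are unfolded and release them in a cycle of ATP binding and hydrolysis. HSP70 proteins hold short hydrophobic stretches, J-domain proteins of the DNAJ families bring clients to them and trigger hydrolysis, nucleotide exchange factors (the HSP110 proteins among them) open the cycle again, and HSP90 takes over clients such as kinases and steroid receptors late in folding. Chaperonins are closed barrels: CCT folds actin and tubulin in the cytosol, and HSP60 with its lid HSP10 folds imported proteins in mitochondria. HSF1 is the factor that switches on many of these genes under heat or proteotoxic stress, and SIRT1, a NAD-dependent deacetylase, is known to deacetylate HSF1 and prolong its binding to heat shock promoters. Leukemic lymphoblasts are fast-growing cells with a high load of protein synthesis, and several of these chaperones are studied as drug targets in them.

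Promoter sequences are shown because the stress-responsive members are known for 2 kinds of promoter element, and because 1 gene called below (Dnajc3) holds such an element. The sequences are from RefSeq (GRCm38.p6), read 5′ to 3′ on the strand of the named gene, with each match in capitals. A heat shock element, the binding motif of HSF1, was searched as GAA and TTC alternating 3 times with 2 free bases between them, beginning with either, on both strands, from 250 bases before each start to 50 bases from it on. It was found in 198 of 32851 windows (0.603%), in 58 of 10537 tested genes (0.55%) and in 4 of the 59 members with an entry, which were Hspd1, Hspe1, Hsph1 and Dnajb6. Hspd1 and Hspe1 are transcribed away from each other on chromosome 1 and share 1 stretch, in which 2 overlapping matches form the capitals. It is written here along Hspe1, at chr1:55088053-55088082 on the plus strand, from 95 to 66 bases before its start.
Hspe1: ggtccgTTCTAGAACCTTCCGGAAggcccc

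An endoplasmic reticulum stress element was searched as CCAAT and CCACG with 9 free bases between them, on both strands of the same windows. It was found in 39 windows (0.119%), in 18 tested genes (0.171%) and in 3 members, all of which serve folding in the endoplasmic reticulum. The Hspa5 stretch lies at chr2:34772020-34772049 on the plus strand, the Hsp90b1 stretch at chr10:86705510-86705694 on the minus strand with 2 matches, 1 of them on the opposite strand, and the Dnajc3 stretch at chr14:118937682-118937931 on the plus strand. A match describes these letters only. Cct4, Dnajc2, Dnajc5, Dnajc11, Dnajc12, Dnajc18, Dnajc30, Hsf1, Hsp90aa1, Hsp90ab1, Hspa8, Hspa9, Hspa13 and Hspb2 had no entry.
Hspa5: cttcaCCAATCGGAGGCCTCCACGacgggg
Hsp90b1: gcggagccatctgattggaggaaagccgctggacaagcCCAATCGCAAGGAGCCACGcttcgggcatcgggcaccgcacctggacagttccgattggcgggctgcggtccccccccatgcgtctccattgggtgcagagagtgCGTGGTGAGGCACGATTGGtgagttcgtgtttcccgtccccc
Dnajc3: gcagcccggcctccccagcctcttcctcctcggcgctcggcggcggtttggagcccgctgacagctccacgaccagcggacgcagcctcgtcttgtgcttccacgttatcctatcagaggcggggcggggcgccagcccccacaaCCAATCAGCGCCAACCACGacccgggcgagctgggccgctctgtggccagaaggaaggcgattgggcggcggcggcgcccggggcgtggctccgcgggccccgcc

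Values are normalized counts, which summed to between 33.6 M and 34.8 M per library. From the spacing of low values, depth was estimated at 21.4 M to 48.9 M reads, so that a value of 100 rested on about 62.4 to 143 reads. Sirt1 (chromosome 10, 63319005 to 63381704, GRCm38) was lower in all 5 Sirt1 deleted libraries than in any control (means 1233 and 918; exact permutation p = 0.00794, the minimum for this design), so most of the transcript signal remained. The 2 groups also differed over all genes by transcript length and by GC content. Slopes of each library's deviations against log2 length averaged 0.0981 ± 0.0615 for control and -0.0981 ± 0.0862 for Sirt1 deleted spleens (SD, n = 5; two-sided exact permutation p = 0.00794). Those against GC content averaged -0.860 ± 0.547 and 0.860 ± 0.930 (SD, n = 5, two-sided exact permutation p = 0.0159). Beside the leukemia, whose 9 T-ALL and thymocyte markers were all present (2 higher, 2 lower), the summed level of 8 B cell markers was 216 to 288 in control and 285 to 457 in deleted libraries (3 higher), and that of 8 macrophage markers was 6339 to 9910 and 3024 to 6036 (4 lower). Of the other markers, 1 of 7 tested neutrophil genes was called higher and 3 of 6 erythroid genes were called lower. All 7 neutrophil genes had positive log2 differences, from 0.44 to 1.03 (median 0.91, against 0.41 for the B cell genes). Their summed level was 1374 to 3962 in control and 1867 to 8231 in deleted libraries, so the groups overlapped. The erythroid genes lay between -0.95 and -0.20 (median -0.54). Of these markers only those of B cells entered a fit below, as a covariate, and the part of the others was not tested. In bulk RNA, fewer cells of a type and less RNA per cell cannot be told apart.

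As a family, the chaperone genes did not move in 1 direction. Genes are called where the Benjamini-Hochberg adjusted p over all 13567 genes, from limma on log2(value + 1), was under 0.05. Of the 73 members, 9 were higher and 9 were lower in the Sirt1 deleted group and 55 were not called, beside 32.0% of all genes called (14.5% higher and 17.5% lower). The median log2 difference, here always Sirt1 deleted minus control, was -0.0074 over the members and 0.00097 over all genes tested. The members took 1.74% to 1.88% of all normalized counts in every library. In 11 members the 2 groups did not overlap, beside 16.5% of all genes. The genes called higher were Cct8, Hspa1l, Hspb11, Dnajc7, Dnajc9, Dnajc15, Dnajc17, Dnajc19 and Dnajc30, and those called lower were Hspa13, Hspa4l, Dnajb13, Dnajc1, Dnajc3, Dnajc6, Dnajc13, Dnajc16 and Dnajc27. So 12 of the 18 calls fell in the DNAJC family, which makes up 25 of the 73 members. Hsp90ab1 and Hspa8, the 2 members with the highest level per kilobase of transcript, were not called.

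These calls changed with how the length slope was handled and with the omission of single libraries. After subtraction of each library's trend with transcript length and GC content, which takes away real differences too where they track length, 11 of the 72 members with a known length were higher and 4 were lower, beside 14.6% of genes called (8.48% higher and 6.12% lower). Of the 18 calls, 10 remained. Sirt1 went from -0.44 to -0.25 and stayed called (limma adjusted p = 0.0289). With the median transcript length in that correction, 12 were higher and 2 lower, beside 19.3% of genes called (10.6% higher and 8.75% lower). With the length slope as a covariate, with the level of B cell markers as a covariate, or without the 3 libraries of steepest slope (control 1, control 2 and Sirt1 deleted 5), limma called 0 members (2, 12 and 14 at an unadjusted p under 0.05). Over all genes these fits called 0.0%, 0.00737% (1 gene, lower) and 0.0221% (0.00737% higher and 0.0147% lower). Length slopes ran from 0.0035 to 0.161 in control and from -0.240 to -0.025 in Sirt1 deleted libraries, without overlap. A fit with the slope therefore cannot separate slope from deletion, and it took Sirt1 itself to -0.00057. Omission of 3 libraries also left fewer libraries to test. The median share of the 18 differences that was left was 9.64% with the length slope (7 of 18 reversed), 85.5% with the B cell markers and 67.1% without the 3 libraries (0 reversed in both). Quantile normalization gave 13 members higher and 8 lower, beside 32.7% of genes called (17.3% higher and 15.4% lower). Left out in turn, control library 2 ended 8 calls (16.2% of all genes were then called), control 1 ended 6 (17.2%), Sirt1 deleted 2 ended 5 (20.0%), control 3 ended 4 (24.3%) and control 4 ended 3 (23.2%). Each of the other libraries ended 0 to 2, with 25.2% to 34.7% of all genes called. Dnajb13, Dnajc3, Dnajc9, Dnajc13, Dnajc15, Dnajc16, Dnajc19, Dnajc30, Hspa13 and Hspb11 stayed called without any 1 library.

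**Figure D1:**
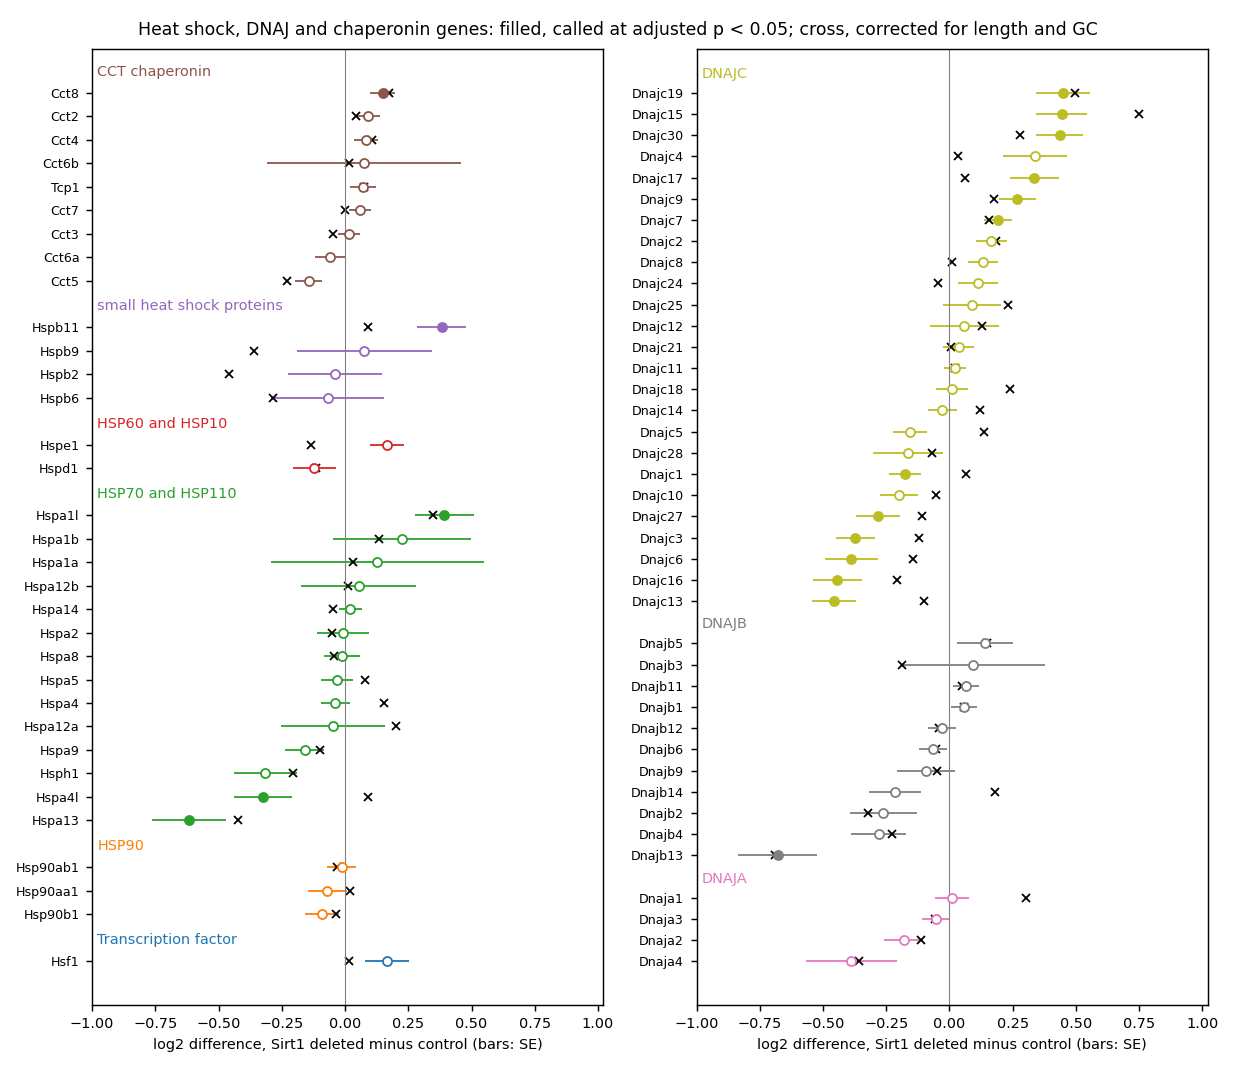
Log2 difference (Sirt1 deleted minus control) of the 73 members by role, with the SE from limma as bars. Filled points passed an adjusted p of 0.05 (9 higher, 9 lower), open points did not, and crosses give the difference after the length and GC correction (72 members). The largest differences in each direction lie outside HSP90 and the HSP60 pair.

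Hsf1 (chromosome 15, 76477422 to 76501913) encodes the master factor of the heat shock response. Its normalized counts were 1831, 1975, 1890, 1988 and 2048 in control libraries 1 to 5, and 2501, 2288, 1810, 1963 and 2430 in Sirt1 deleted libraries 1 to 5. Deleted libraries 1, 2 and 5 lay above every control, whereas deleted library 3 was the lowest of all 10. This gave a log2 difference of 0.17 (SE 0.0853, limma adjusted p = 0.148), and of 0.01 after the length and GC correction. Of 12 members known to be induced by HSF1, 11 were tested and 0 were called by limma, beside 32.0% of all genes. Their median was -0.01, with a range of -0.32 (Hsph1) to 0.23 (Hspa1b). Hspb1 was not analysed here. After the correction 1 of the 11, Dnaja1, was called higher (0.30, limma adjusted p = 0.0135).

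The HSP90 genes were not called. Hsp90ab1 (chromosome 17, 45567775 to 45573271), the constitutive cytosolic HSP90, had the highest level per kilobase of transcript of any member with a known length, 57383 normalized counts per kilobase in control. Its normalized counts were 144732, 148596, 154388, 138503 and 136805 in control and 143514, 142646, 139242, 144890 and 145835 in Sirt1 deleted libraries. All 5 deleted libraries lay inside the control range, and the log2 difference was -0.01 (SE 0.0575, limma adjusted p = 0.883). Hsp90aa1, the more inducible cytosolic form, gave -0.07 (adjusted p = 0.497), and Hsp90b1 of the endoplasmic reticulum, also known as GRP94, gave -0.09 (adjusted p = 0.310). The sum of both cytosolic genes was 175784 ± 7193 in control and 173037 ± 1950 in Sirt1 deleted libraries (SD, n = 5).

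Among the 14 HSP70 and HSP110 genes, Hspa1l was called higher, Hspa13 and Hspa4l were called lower, and 11 were not called, from -0.32 (Hsph1) to 0.23 (Hspa1b). The median of the 14 was -0.02, and over all genes 14.5% were called higher and 17.5% lower. Hspa13 (chromosome 16, 75745431 to 75767104) encodes an HSP70-like ATPase of microsomes, also known as STCH. Control libraries 1 to 5 held 652, 680, 630, 592 and 504 normalized counts, and Sirt1 deleted libraries 1 to 5 held 459, 384, 390, 521 and 274. Of the deleted libraries 4 lay below every control, and the fourth lay between control 5 and the other controls. The log2 difference was -0.62 (SE 0.146, limma adjusted p = 0.0114), and -0.42 (adjusted p = 0.0243) after the length and GC correction. It was the largest difference of the HSP70 genes in either direction.

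Hspa1l (chromosome 17, 34972703 to 34979285) encodes an HSP70 that is best known from male germ cells. Its normalized counts were 198, 201, 169, 207 and 202 in control and 240, 293, 209, 242 and 310 in Sirt1 deleted libraries. All 5 deleted libraries lay above every control, the closest by 209 to 207. Limma gave a log2 difference of 0.39 (SE 0.115, limma adjusted p = 0.0234), and the call ended without control library 1, 2 or 3 or deleted library 2. Of its 31-base words, 71.7% also occur in other transcripts on either strand. All of these shared words occur in the annotation Gm10501, so reads could be split between Hspa1l and Gm10501. Hspa4l, an HSP110-type exchange factor, gave -0.32 (adjusted p = 0.0464) with overlapping groups, and the correction turned this to 0.09 with the longest transcript but left -0.21 with the median one.

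Hspa8 (chromosome 9, 40800984 to 40810087) encodes the constitutive cytosolic HSC70 and ranked next to Hsp90ab1 per kilobase, with 46997 in control. Its control libraries ran from 105902 to 117808 and its Sirt1 deleted libraries from 100294 to 129824, which reached past the controls on both sides (log2 difference -0.01, SE 0.0713, limma adjusted p = 0.920). With 79.7% of its 31-base words shared with other transcripts, Hspa8 is one of the members whose reads are least certain. Hspa1a and Hspa1b, the classical stress-induced HSP70 genes, were low and uneven. Hspa1a held 52.8, 23.0, 17.8, 13.4 and 53.5 normalized counts in control and 50.9, 12.5, 32.4, 34.9 and 34.2 in Sirt1 deleted libraries, the widest relative spread of any member in control (coefficient of variation 60.7%). High and low libraries occurred in both groups, and neither gene was called (0.13, adjusted p = 0.836, and 0.23, adjusted p = 0.541, by limma). The 2 genes are near-identical, with 70.1% and 68.1% of their words shared. Hspa5, the BiP protein of the endoplasmic reticulum, and Hspa9, the mitochondrial HSP70, gave -0.03 and -0.16 (adjusted p = 0.715 and 0.122). Hsph1, the main cytosolic HSP110, gave -0.32 (adjusted p = 0.0668).

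The mitochondrial chaperonin pair, which shares the promoter stretch printed above, was not called in either member. Hspd1 (HSP60, chromosome 1, 55077835 to 55088243) held 24334 ± 1877 normalized counts in control and 22453 ± 2750 in Sirt1 deleted libraries (SD, n = 5), a log2 difference of -0.12 (limma adjusted p = 0.282). Hspe1 (HSP10, chromosome 1, 55088132 to 55091307) held 4103 ± 198 and 4621 ± 441, a difference of 0.17 (adjusted p = 0.0708). The differences had opposite signs. After the length and GC correction they were -0.12 and -0.13. The difference between the 2 genes was not tested. The Hspe1 transcript has 774 bases and that of Hspd1 2423, and 59.1% and 55.8% of their 31-base words occur in other transcripts.

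The 4 small heat shock genes that passed the filter were at low levels, and 1 of them was called. Hspb11 (chromosome 4, 107253593 to 107279938), whose product is also an intraflagellar transport protein, held 378, 398, 407, 372 and 431 normalized counts in control and 431, 554, 535, 465 and 622 in Sirt1 deleted libraries. Deleted library 1 lay at the highest control, and the other 4 lay above it. Its log2 difference was 0.38 (limma adjusted p = 0.0143), and 0.09 (adjusted p = 0.410) after the length and GC correction, for a transcript of 608 bases. Hspb2, Hspb6 and Hspb9 lay between -0.07 and 0.08, and the highest control mean among them was 112.

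The CCT chaperonin is an obligate ring of different subunits, and the log2 differences of its genes lay between -0.14 and 0.15. Of the 9 members, 1 was called higher and 0 lower, with a median of 0.07, beside 14.5% and 17.5% of all genes. Cct8 (theta subunit, chromosome 16, 87483326 to 87495873) held 25041, 25288, 25586, 25874 and 27158 normalized counts in control and 28965, 28082, 29988, 27026 and 28891 in Sirt1 deleted libraries. Of the deleted libraries 4 lay above every control, and the fourth lay just under control 5. Cct8 thus differed by 0.15 on the log2 scale (SE 0.0483, limma adjusted p = 0.0338), and by 0.17 (adjusted p = 0.0219) after the correction. The call ended in 7 of the 10 fits that left out 1 library, with adjusted p up to 0.0884.

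Cct5 (epsilon subunit, chromosome 15, 31590800 to 31601804) had the opposite sign. It held 19832, 20677, 20898, 19656 and 19544 normalized counts in control and 18733, 17915, 18854, 19115 and 16518 in Sirt1 deleted libraries. Its groups did not overlap, and its log2 difference of -0.14 just missed the threshold (limma adjusted p = 0.0511), while the length and GC correction gave -0.23 (adjusted p = 0.0296), or -0.15 with the median transcript length (adjusted p = 0.0512). The other subunits of the ring, Tcp1, Cct2, Cct3, Cct4, Cct6a and Cct7, lay between -0.06 and 0.09. The sum over the 8 genes was 147491 ± 1953 in control and 151731 ± 4234 in Sirt1 deleted libraries (SD, n = 5). Cct6b, a form known from testis, held 17.0 and 18.6 normalized counts on average. Per kilobase, the subunit genes with a known length ranged in control from 4694 (Cct4) to 10859 (Cct5).

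**Figure D2:**
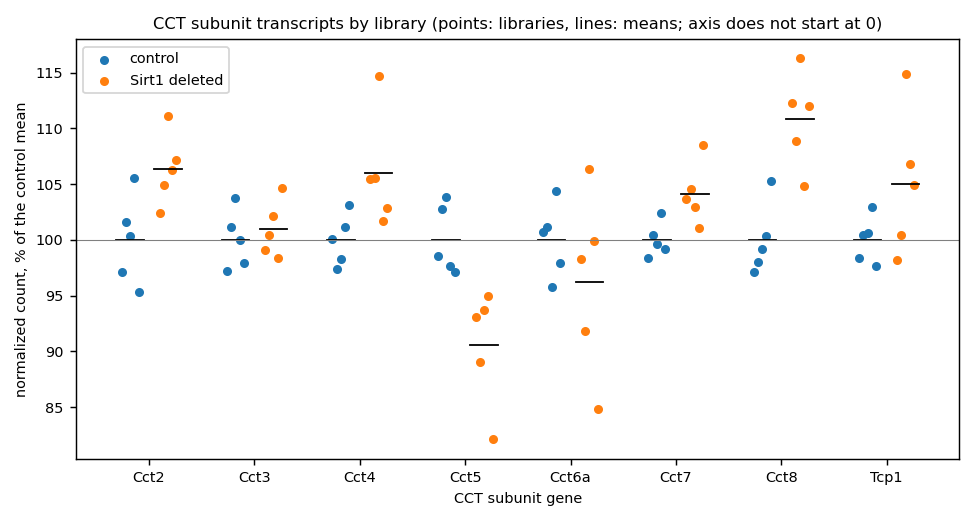
Normalized counts of the 8 CCT ring subunit genes as a percent of each gene's control mean, 1 point per library, on an axis that does not start at 0. Cct8 is the one called gene, with 4 deleted libraries above every control, and Cct5 is the one gene whose groups do not overlap, with all 5 deleted libraries below every control.

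Many type A and type B J-domain proteins are general HSP70 partners. Among them Dnaja3 is mitochondrial, and Dnajb9 and Dnajb11 belong to the endoplasmic reticulum. Of these 15 genes 1 was called, beside 32.0% of all genes. None of 4 DNAJA genes was called in the uncorrected fit (median -0.12), and Dnaja1, the DNAJA gene with the highest mean, held 8013 ± 541 and 8069 ± 680 (0.01, limma adjusted p = 0.932). The correction takes the longest transcript of Dnaja1, 5622 bases, and gave the 0.30 printed above. Dnajb1, the HSP40 that works with stress-induced HSP70, held 4154 ± 236 and 4324 ± 146 (SD, n = 5; 0.06, limma adjusted p = 0.391). The 10 uncalled DNAJB genes lay between -0.28 (Dnajb4) and 0.14 (Dnajb5). Dnajb4 and Dnaja4 gave -0.28 and -0.39 and were not called (adjusted p = 0.0658 and 0.110).

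Dnajb13 (chromosome 7, 100501716 to 100514960), which encodes a J protein of sperm flagella and motile cilia, had the largest difference of all members. Control libraries 1 to 5 held 145, 181, 126, 159 and 154 normalized counts, and Sirt1 deleted libraries 1 to 5 held 71.5, 129, 91.8, 106 and 84.8. Deleted library 2 just exceeded control 3, and the other 4 lay below every control. The log2 difference was -0.68 (SE 0.156, limma adjusted p = 0.0106), and -0.69 (adjusted p = 0.0142) after the correction. It overlaps Ucp2, on the opposite strand, over 305 bases where both genes end, and 10.7% of its 31-base words are shared. Ucp2 itself averaged 30752 normalized counts in control and 34815 in Sirt1 deleted libraries (0.18, adjusted p = 0.0593), which is the opposite sign. The use of strand in counting is not stated, so reads of the pair cannot be told apart with certainty.

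Of the 25 DNAJC genes, a family of J-domain proteins with specialised addresses, 6 were higher and 6 were lower, with a median of 0.04. Over all genes 14.5% were higher and 17.5% lower. In 9 DNAJC genes the groups did not overlap, beside 16.5% of all genes. The 3 called genes of mitochondrial members were all higher. Dnajc15 (chromosome 14, 77820681 to 77875125), an inner membrane J protein known as MCJ that restrains respiratory complex I, held 556, 556, 632, 622 and 675 normalized counts in control and 750, 833, 775, 741 and 1065 in Sirt1 deleted libraries. All 5 deleted libraries lay above every control, with library 5 far above the rest. Limma gave a log2 difference of 0.44 (SE 0.101, adjusted p = 0.0104), and the correction, which takes a transcript of 6193 bases for this gene, gave 0.75 (adjusted p = 0.0103).

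Dnajc30 (chromosome 5, 135064202 to 135065862), a mitochondrial J protein linked to the turnover of complex I, held 357, 342, 363, 406 and 438 normalized counts in control and 485, 479, 533, 480 and 603 in Sirt1 deleted libraries. The groups did not overlap, and the log2 difference was 0.44 (SE 0.0926, limma adjusted p = 0.00883) and 0.28 (adjusted p = 0.0238) after the correction. Of its words 26.7% are shared, 24.9% with Bud23, which was not called (0.19, adjusted p = 0.0501). Dnajc19 (chromosome 3, 34056020 to 34081321), a J protein of the motor that pulls proteins through the inner membrane, held 919, 886, 919, 1002 and 1147 in control and 1123, 1390, 1341, 1159 and 1673 in Sirt1 deleted libraries. Deleted library 1 lay under control 5 and the other 4 lay above every control (0.45, limma adjusted p = 0.0116, and 0.50 after the correction). Over the 10 tested mitochondrial members, 3 were higher and 0 lower (median 0.09), beside 14.5% and 17.5% of all genes. After the correction the counts were the same, with a median of -0.02. Dnajc4, another of them, had groups that did not overlap and missed the threshold (0.34, limma adjusted p = 0.0557).

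The called genes of the endoplasmic reticulum members were all lower. Of 13 such members, 4 were lower (Hspa13, Dnajc1, Dnajc3 and Dnajc16) and 0 higher, with a median of -0.09, beside 17.5% and 14.5% of all genes. Their median transcript is long, 4042 bases, and of all genes with 3607 to 5060 bases 26.1% were lower and 3.67% higher. Of the called genes, Dnajc1, Dnajc3 and Dnajc16 are longer still, with 5497, 5141 and 5969 bases. Among all genes of 5061 bases and more, 52.1% were lower and 1.69% higher. Dnajb14 and Dnajc18, with 9477 and 5146 bases, also lie there and were not called. After the correction 2 were lower and 1 was higher. Dnajc3 (chromosome 14, 118937976 to 118981697) encodes p58IPK, a BiP partner that also inhibits the stress kinases PERK and PKR, and holds the stress element printed above. Its normalized counts were 4631, 4514, 4265, 4666 and 3943 in control and 3537, 3205, 3719, 3708 and 2875 in Sirt1 deleted libraries. The groups did not overlap, and the log2 difference was -0.37 (SE 0.0770, limma adjusted p = 0.00855). The correction left -0.12 (adjusted p = 0.0468), and with the median transcript length in its place -0.08 (adjusted p = 0.151). Hspa5 and Hsp90b1, the other 2 members with that element, were not called, as given above.

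Dnajc16 (chromosome 4, 141760189 to 141790931), an endoplasmic reticulum membrane protein, held 626, 654, 655, 660 and 542 normalized counts in control and 529, 469, 441, 505 and 373 in Sirt1 deleted libraries. The groups did not overlap, with 529 below 542 (-0.44, limma adjusted p = 0.0094). After the correction it was -0.21 and no longer called (adjusted p = 0.0623). Dnajc1, which recruits BiP to translating ribosomes, gave -0.18 (adjusted p = 0.0469), and its call ended in 8 of the 10 fits without 1 library. Dnajc10, a J protein with disulfide reductase activity, gave -0.20 and missed the threshold (adjusted p = 0.0558).

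The remaining called DNAJC genes belong to the cytosol, nucleus and vesicles. Dnajc13 (chromosome 9, 104151282 to 104262930), the endosomal J protein RME-8, had the smallest adjusted p of all members. Its normalized counts were 4062, 3996, 3543, 3554 and 3136 in control and 2996, 2665, 2768, 2692 and 2208 in Sirt1 deleted libraries. The groups did not overlap (-0.46, SE 0.0875, limma adjusted p = 0.00797), and the correction left -0.10 (adjusted p = 0.110) for a transcript of 8012 bases. Dnajc6, which encodes the clathrin-uncoating factor auxilin, and Dnajc27, a small GTPase with a J domain, were lower by limma (-0.39, adjusted p = 0.0176, and -0.28, adjusted p = 0.0271) and lost their calls with the correction.

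Dnajc7 (chromosome 11, 100582818 to 100620168), a tetratricopeptide protein that binds both HSP70 and HSP90, held 8326, 8312, 8521, 8790 and 9047 normalized counts in control and 9208, 9778, 9851, 9338 and 11042 in Sirt1 deleted libraries. The groups did not overlap (0.19, SE 0.0562, limma adjusted p = 0.0226), and the correction left 0.16 (adjusted p = 0.0252), but the call ended without control library 1 or 2. Dnajc9, a co-chaperone of histones H3 and H4, was higher (0.27, limma adjusted p = 0.0170, and 0.18 after the correction). Dnajc17, a nuclear J protein, was higher by 0.34 (adjusted p = 0.0220), with 40.7% of its words shared, and its call ended with the correction (0.06). The 13 uncalled DNAJC genes lay between -0.20 (Dnajc10) and 0.34 (Dnajc4).

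**Figure D3:**
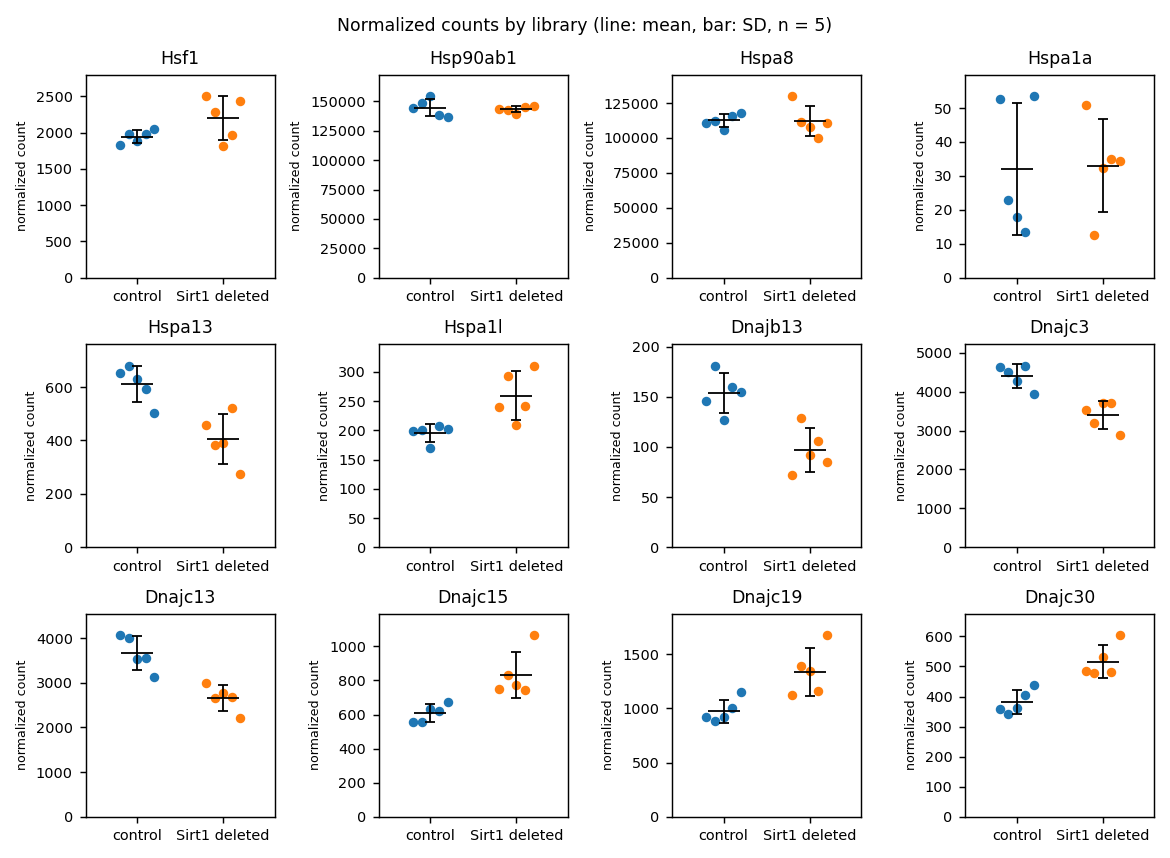
Normalized counts of 12 members in each of the 10 libraries, 1 panel per gene on a linear axis from 0, with a line at each group mean and a bar for the SD (n = 5). Within a group, points run from library 1 on the left to library 5. Dnajc13, Dnajc3, Dnajc15, Dnajc30 and Hspa1l show groups that do not overlap, while those of Hsf1, Hsp90ab1, Hspa8 and Hspa1a overlap.

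The direction of the calls followed transcript length in the members as it did in all genes. Among genes in the shortest quintile (up to 1784 bases), 44.7% were higher and 1.17% lower, and of the 12 members there 4 were higher and 0 lower. In the longest quintile (5061 bases and more), 1.69% of genes were higher and 52.1% lower, and of the 12 members there 6 were lower and 1, Dnajc15, was higher. In the middle quintile 0 of 16 members were called. The median share of the 18 differences that was left after the correction was 55.4%, and Dnajc1 and Hspa4l changed sign. That correction takes length and GC content together, and their parts were not separated. Cct5 became lower, and Dnaja1, Dnajc2, Dnajc18 and Hspa4 became higher. The cause of the slope was not tested.

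**Figure D4:**
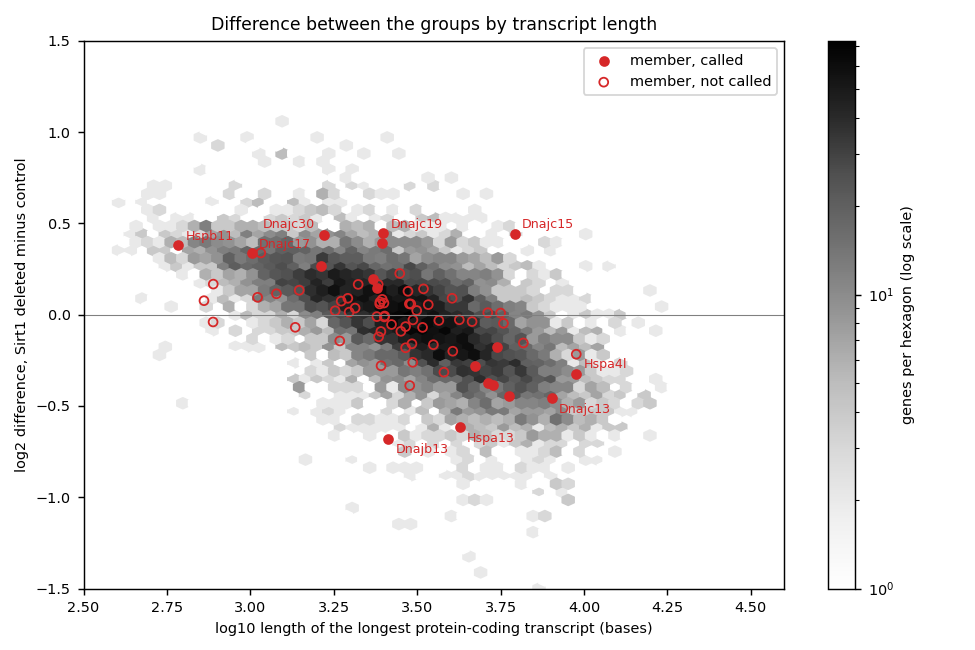
Log2 difference (Sirt1 deleted minus control, axis limited to 1.5 in each direction) against the log10 length of the longest protein-coding transcript. Grey hexagons count genes on a log scale, and red points are the members, filled where called. The median over genes runs from 0.23 in the shortest quintile to -0.28 in the longest, and Dnajc15, at 6193 bases and 0.44, stands above the long genes around it.

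The partners of the chaperones were counted from lists of known partners in the same fit, and 31 of 72 tested genes were called, 24 higher and 7 lower, beside 32.0% of all genes (14.5% and 17.5%). After the correction 9 were higher and 1 lower (14.6% of all genes called), with the median transcript length 19 and 5 (19.3%), and with quantile normalization 32 and 5 (32.7%). Their median transcript is short, 2200 bases against 3088 over all genes. Without control library 1, 2 or 4 or deleted library 2 the 31 calls became 18, 14, 20 and 18. Over all genes these fits called 17.2%, 16.2%, 23.2% and 20.0%, down from 32.0%. Of 13 HSP70 and HSP110 partners, 4 were higher and 2 lower. They included the exchange factors Hspbp1, at 2023 ± 130 and 2558 ± 195 normalized counts (0.34, limma adjusted p = 0.00797), and Bag1, at 3410 ± 127 and 4069 ± 288 (0.25, adjusted p = 0.00998; SD, n = 5 for each). None of the 13 was called after the correction, which left Hspbp1 at 0.08 and Bag1 at 0.04. With the median transcript length Hspbp1 stayed called (0.13, adjusted p = 0.0323).

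Of 16 HSP90 partners, 3 were higher and 0 lower, namely Ahsa2, Tomm34 and Sugt1. The correction also gave 3 and 0, namely Ahsa2, Sugt1 and Cdc37. Cdc37 was -0.0033 (limma adjusted p = 0.966) before the correction and 0.31 after it, which takes a transcript of 7851 bases. Sugt1 went from 0.19 to 0.55, with a transcript of 7392 bases. Ahsa2, a homologue of the HSP90 ATPase activator AHA1, held 1127, 1043, 1165, 1230 and 1477 normalized counts in control and 1637, 1656, 1839, 1550 and 2020 in Sirt1 deleted libraries. Its groups did not overlap (0.53, limma adjusted p = 0.00797, and 0.64 after the correction). Tomm34, a chaperone-binding protein of mitochondrial import, gave 0.19 (adjusted p = 0.0160; 0.09 and not called after the correction, 0.17 and called with the median transcript length), and Stip1, the HOP adaptor between HSP70 and HSP90, gave 0.10 and was not called (adjusted p = 0.110). Of 14 genes for prefoldin and the partners of CCT and tubulin folding, 9 were higher and 2 lower (median 0.29), and 4 and 1 after the correction. Over all genes 14.5% were higher and 17.5% lower. The median transcript of these 14 genes is short, 1505.5 bases. Of all genes with 312 to 1784 bases, 44.7% were higher and 1.17% lower. Pfdn1, a subunit of prefoldin, which hands actin and tubulin to CCT, gave 0.37 (adjusted p = 0.00964), and the tubulin cofactor Tbcb gave 0.36 (adjusted p = 0.0104).

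Other heat shock regulators were close to the threshold. Hsbp1, a small negative regulator of HSF1, gave 0.22 (limma adjusted p = 0.0499), a call that ended in 8 of the 10 fits without 1 library. Hsf4 gave 0.67 at a low level (13.6 and 22.1 normalized counts, adjusted p = 0.0513), and Hsf2 gave -0.20 (adjusted p = 0.158). Beside the lists that follow, 14.5% of all genes were higher and 17.5% lower, or 8.48% and 6.12% after the correction. Of 15 endoplasmic reticulum folding genes 2 were higher and 2 lower. Among them were Manf (0.24, limma adjusted p = 0.0141), a secreted stress factor, and Sel1l (-0.30, limma adjusted p = 0.0297). Sel1l is an adaptor of protein disposal, and its call ended in 5 of the 10 fits without 1 library. Of 10 mitochondrial protease and folding genes 5 were higher and 1 lower (0 and 0 after the correction), with Phb2 at 0.23 and the matrix protease Clpp at 0.35 (adjusted p = 0.0107 and 0.0108). Of 12 immediate early genes, which respond to handling of cells as well as to signals, 3 were higher and 0 lower, with Jund at 0.69 (adjusted p = 0.0139) and Ier2 at 0.32 (adjusted p = 0.0149); none was called after the correction, although Jund was with the median transcript length (0.41, adjusted p = 0.0251).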

How the data were processed

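Strand-specific RNA-seq libraries of 10 leukemic spleens were compared. The deposited signal is 1 table of normalized counts per gene symbol; kallisto 0.44.0, DESeq and build mm10 are named in the submitters' processing notes. How transcripts were summed to genes, and whether counting used strand, is not given in the sources used here. The values are not whole: 86.6% to 92.6% of the lowest values lay within 0.1 of a multiple of 1 step per library, which gave the estimated depths, and count models were not fitted.

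Genes with a value of 10 or more in at least 5 libraries were tested by limma-trend (limma 3.58.1, R 4.3.3) on log2(value + 1), control against Sirt1 deleted, with no covariate, and Benjamini-Hochberg adjustment over all 13567 genes. Fold changes on this scale understate those of low genes. Sirt1, the length slopes and the GC slopes were tested by exact permutation of the 10 libraries (252 arrangements). All tests are two-sided. Positions come from GENCODE M21 (GRCm38), and lengths from the longest protein-coding transcript, known for 12397 genes (91.4%) and 72 members. For the length and GC correction, natural splines (5 degrees of freedom) on log2 length and on GC content were fitted in each library and subtracted. Shared sequence was counted as 31-base words found in transcripts of other genes.

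The alternatives tried were a pseudocount of 0.5 or 5, a minimum of 50 or no filter, TMM factors, quantile normalization, robust limma, the B cell and length slope covariates, the length and GC correction, omission of the 3 libraries of steepest slope, and omission of each library. The correction with the median transcript length was chosen after seeing the data. The members and lists were chosen with earlier results of these data known. The genes named are Sirt1, Hsf1, up to 3 called members of smallest p (5 in DNAJC) and the most abundant member of each role group, every member with an absolute log2 difference of at least 0.58, and the 2 smallest p in each partner list. Every other gene was named with its values already known. Hspb1 was not analysed here. Calculations used Python 3.11.15, numpy 2.4.6 and pandas 2.3.3, and the steps were tested on simulated data.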

Additional observations from a re-analysis of the deposited data

Results flagged for a closer look

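Of 66 groups of 5 libraries (33 named genes in each group), 6 held 1 library far from the other 4 by Dixon's criterion, and chance flags about 1 in 20 groups. In Dnajc16, control library 5 was lowest at 542 normalized counts, with the others at 626 to 660. In Dnajc15, Sirt1 deleted library 5 was highest at 1065, with the others at 741 to 833. In Hspa1l, control library 3 was lowest at 169, with the others at 198 to 207. In Bag1, control library 5 was highest at 3633, with the others at 3327 to 3390. In Pfdn1, control library 5 was highest at 2063, with the others at 1787 to 1852. In Tbcb, Sirt1 deleted library 5 was highest at 1851, with the others at 1346 to 1456. So 5 of the 6 concern the fifth library of a group. Control library 5, flagged in Dnajc16, Bag1 and Pfdn1, had the flattest length slope of all libraries (0.0035). Sirt1 deleted library 5, flagged in Dnajc15 and Tbcb, had the steepest of its group (-0.240).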

How the results depend on the processing

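With B cell markers as covariate, limma called 0 members (0 higher, 0 lower, 12 at an unadjusted p under 0.05) and 0 partner genes (11), and Sirt1 was -0.26 (adjusted p = 0.353). With the length slope as a covariate, limma called 0 members (0 higher, 0 lower, 2 unadjusted) and 0 partner genes (1 unadjusted). Because the slopes of the groups did not overlap, this fit cannot separate slope from deletion. Sirt1 was then -0.00057, and the signs reversed in 7 called members, namely Dnajc15 (-0.0039), Dnajc7 (-0.0123), Hspa13 (0.0477), Hspa4l (0.0663), Dnajc19 (-0.0391), Dnajc27 (0.0729) and Dnajc6 (0.0614), and among the named partner genes in Hsbp1 (-0.12) and Sel1l (0.10). Without the 3 libraries of steepest slope, limma called 0 members (0 higher, 0 lower, 14 unadjusted) and 0 partner genes (24 unadjusted), with Sirt1 at -0.27 (adjusted p = 0.128). The length and GC correction called 4 members lower and 10 partner genes, and reversed Hspa4l (0.0900), Dnajc1 (0.0652) and, of the named partner genes, Phb2 (-0.0141). With the median transcript this correction called 2 members lower and reversed Dnajc1 (0.0946) and, of the named partner genes, Sel1l (0.0077). Sirt1 was -0.25 with the longest transcript (limma adjusted p = 0.0289) and -0.23 with the median one (limma adjusted p = 0.0275). Leaving out each library in turn gave 10 to 23 called members (5 to 11 higher, 5 to 13 lower) and 14 to 32 partner genes, while 16.2% to 34.7% of all genes were called. The cause was not tested. No paired analysis was possible because the labels give no replicate number or source that links a control with a deleted spleen. At the level of Hspa2 (mean 123 in control), counting error alone was about 8.84%.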

Other observations

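Dnajc12, a J-domain co-chaperone of aromatic amino acid hydroxylases, is the chromosomal neighbour of the targeted gene. The 2 genes lie on opposite strands of chromosome 10 with 738 bases between them (Dnajc12 at 63382443 to 63410576). Its normalized counts were 193, 195, 293, 244 and 256 in control and 208, 260, 235, 220 and 300 in Sirt1 deleted libraries. The groups overlapped over nearly their whole range, and the log2 difference was 0.06 (SE 0.136, limma adjusted p = 0.764), against -0.44 for Sirt1. After the length and GC correction the values were 0.13 for Dnajc12 and -0.25 for Sirt1.

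In control libraries, Dnajc11, a mitochondrial protein associated with the MICOS complex, had the smallest relative spread of all members (coefficient of variation 1.51%). Counting error alone was about 1.67% at this level, so the spread was no wider than counting gives. Its mean was 3459 ± 52.2 in control and 3515 ± 84.5 in Sirt1 deleted libraries (SD, n = 5; 0.02, limma adjusted p = 0.706).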
